A study of Mus musculus with 14 samples.

Results

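RNA recovered with miR-93-5p was compared with RNA recovered with a mutated form of the microRNA, in 1 library of each kind. These are 2 of the 14 samples of the series, and they were taken by their labels. Both come from a mouse liver-cancer study of the LEPC cell line, kept for 3 passages and of strain C57BL/6, whose other samples are a scr control, RNA-seq and chromatin libraries. The genotype label of the miR-93-5p library is "overexpress miR-93-5p" and that of the mutant library "overexpress miR-93-5p mutant". The series text mentions biotin for the miR-93-5p cells and not for the mutant cells, so how the mutant RNA was recovered is not stated, and the altered bases of the mutant are not given. The RNA-seq libraries of the same cells were used for context only. With 1 library per bait there is no replicate error and no test, so each difference given is one between 2 libraries, not between conditions.

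A microRNA guides an Argonaute protein to messenger RNAs, mostly through pairing of its seed, the bases near its 5′ end, with sites that usually lie in the 3′ untranslated region. Recovery of RNA with a tagged microRNA is used to enrich messages bound to it, and a bait with a changed seed serves as the background for such a recovery. miR-93-5p comes from the Mir106b-25 cluster inside the Mcm7 gene and belongs to the miR-17 family, which is known for repressing cell-cycle inhibitors, among them Cdkn1a, and the transcription factor E2f1.

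The bait and the mouse microRNAs that carry the same seed are printed to show the seed that the bait shares with its family. The sequences are from RefSeq (GRCm38.p6), 5′ to 3′, with the seed (bases 2 to 8) in capitals.
mmu-miR-93-5p: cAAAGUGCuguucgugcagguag
mmu-miR-106b-5p: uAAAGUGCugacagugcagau
mmu-miR-17-5p: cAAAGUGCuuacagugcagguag
mmu-miR-20a-5p: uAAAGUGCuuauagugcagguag
mmu-miR-20b-5p: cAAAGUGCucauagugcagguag
mmu-miR-106a-5p: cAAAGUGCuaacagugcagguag
mmu-miR-6383: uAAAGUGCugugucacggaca
Mature miR-93-5p has 23 bases and lies at chr5:138165574-138165596 on the minus strand. Counted base by base from the 5′ end, miR-20b-5p shares 20 of these bases with it, miR-17-5p, miR-20a-5p and miR-106a-5p share 19 each, and miR-106b-5p shares 16. miR-6383 has the seed but shares 10 bases in all. The hairpin of 88 bases from which miR-93-5p is cut is shown with the mature arm in capitals.
Mir93 hairpin: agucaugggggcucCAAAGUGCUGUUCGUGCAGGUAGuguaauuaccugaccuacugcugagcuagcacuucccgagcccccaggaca

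Values are FPKM, the number of sequenced fragments relative to transcript length and library size, deposited per assembled locus, each between a lower bound and an upper one. The miR-93-5p library had 18031 loci with a value and the mutant library 14815. The loci carry no gene names and were assembled separately in each library. Gene ends of GRCm38 lay within 5 bp of 712 locus ends in the miR-93-5p library and of 601 in the mutant library, against 21 and 20 for mm9 gene ends, so genes were named through GRCm38.p6 coordinates. A locus was given to a protein-coding gene where their overlap covered at least 0.5 of their joint extent. That gave 5749 of 21900 genes in the miR-93-5p library and 8379 in the mutant library. Both libraries had a locus for 5494 genes, of which 5493 had a mean FPKM of at least 1 and were compared.

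The miR-93-5p library was in shorter pieces. Its median locus spanned 2121 bp, against 9086 bp in the mutant library. Loci over 20000 bp made up 15.5% of its loci and 31.5% of those of the mutant. A further 2885 genes had a locus matched to the whole gene in the mutant library alone, and 2408 of these had some shorter locus in the miR-93-5p library. The reverse held for 255 genes. Since neither library gives read counts, the part that depth plays in this was not tested.

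Very short loci carried FPKM values that cannot be read as abundance. The miR-93-5p library had 625 loci of at most 200 bp, which held 90.0% of its summed FPKM, and the mutant library had 244, which held 71.1%. A locus of 40 bp in the miR-93-5p library had the highest value of either library, 1164530 FPKM, with bounds of 629451 and 1699600. Such loci enter the FPKM ratios below only where the gene itself is comparably short, but sums of implied fragments over a gene's loci, described below, include them. The arm of the deposited interval, the upper bound minus the value, was 30.7% of FPKM at the median in the miR-93-5p library and 20.9% in the mutant library. It was 45.9% of FPKM in miR-93-5p loci of at most 200 bp, 50.0% in those of 200 to 500 bp and 17.1% in those over 20000 bp. In mutant loci it was 44.2% up to 200 bp, 50.0% at 500 to 1000 bp and 14.6% over 20000 bp. Loci over 1000 bp thus had narrower intervals than shorter ones in both libraries.

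**Figure D1:**
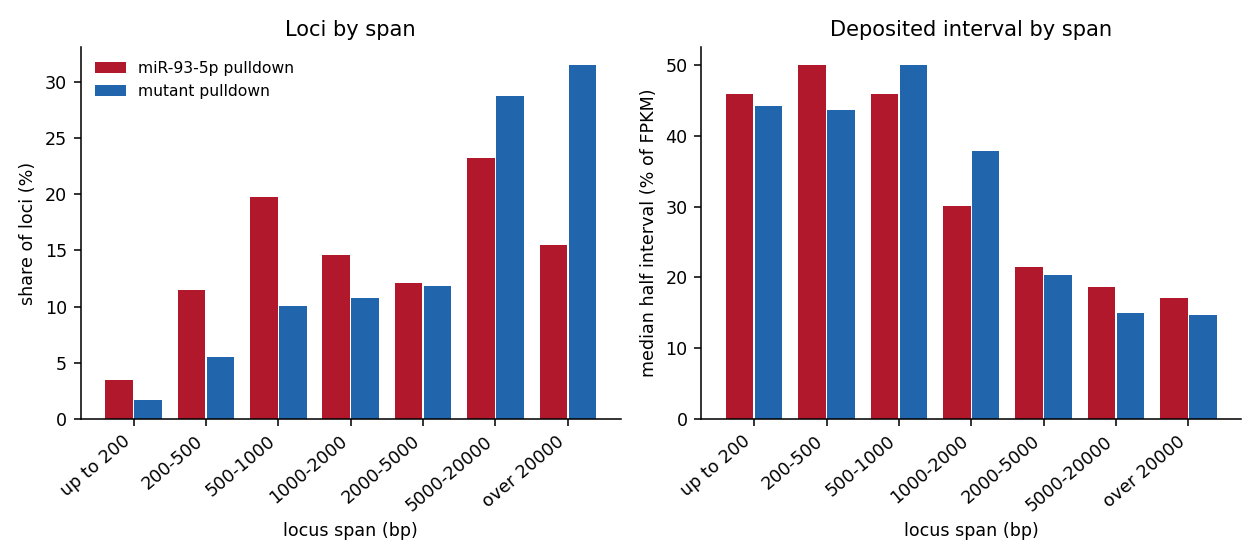
Left, the share of loci (%) in each class of locus span (bp), and right, the median arm of the deposited interval (% of FPKM) in the same classes, for the miR-93-5p pulldown (red) and the mutant pulldown (blue). Loci over 20000 bp are 15.5% of miR-93-5p loci and 31.5% of mutant loci, and the interval is widest in a class under 1000 bp and narrowest over 20000 bp in both libraries.

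If an interval arm is 2 times the counting error, it implies a number of fragments behind each value. Where that number was under 40 it fell within 0.1 of a whole number for 57.8% of miR-93-5p loci and 55.2% of mutant loci. The implied number did not keep pace with FPKM at high levels. Genes compared were classed by their mean FPKM over the libraries. In the mutant library those of 3 to 10 FPKM had 31.5 implied fragments per FPKM at the median and those of 300 to 1000 FPKM had 3.29. In the miR-93-5p library these values were 17.7 and 2.84. Implied fragments are therefore used here as a measure of how firm a value is, are compressed for abundant genes, and are not depth. Ratios of implied fragments are summed over a gene's loci and scaled so that the median gene compared lies near 0, whereas FPKM ratios are as deposited unless called scaled.

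Across the genes compared, FPKM was lower in the miR-93-5p library. The median log2 ratio, miR-93-5p over mutant with 1 FPKM added to each value, was -0.42. At least 2-fold higher were 279 genes (5.08%) and at least 2-fold lower 1431 (26.1%). Scaling the libraries to a median ratio of 1 made the split 643 genes higher (11.7%) and 782 lower (14.2%). Scaled ratios below are relative to this shift of 0.42. The counting error of a log2 ratio that the intervals imply was 0.13 at the median, which leaves out any difference between repeats of the pulldown.

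The difference varied with how abundant a message was. Genes with a mean of 1 to 3 FPKM had a median log2 ratio of 0.01, those of 10 to 30 FPKM of -0.47, and those of 100 to 300 FPKM of -0.80. Beyond that it turned back, to -0.63 at 300 to 1000 FPKM and -0.42 above 1000 FPKM, the median of all genes. Among genes of 100 to 300 FPKM, 6.72% were higher and 24.8% lower by 2-fold or more after scaling. Among genes of 3 to 10 FPKM these shares were 16.5% and 5.18%. The medians of gene lists given below include this dependence on level.

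Interval width and span were checked against the calls. Genes whose interval arms were at most 10% of FPKM in both libraries numbered 1604, and 3.99% of them were higher and 27.4% lower. Of the 1310 genes with an arm over 25% in either library, 6.72% were higher and 22.4% lower. For 86.1% of genes the shorter of the paired loci spanned at least 0.8 of the longer, and of these 4.93% were higher and 26.5% lower. Where the mutant span was the longer by more than that, in 668 genes, 5.69% were higher and 22.5% lower. In the 96 genes whose miR-93-5p span was the longer by more than that, 8.33% were higher and 30.2% lower. In each of these classes more genes were lower than higher, but the shares differed, with higher genes least frequent in narrow intervals.

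Genes at least 2-fold apart in FPKM and also at least 2-fold apart the same way in implied fragments are called here the genes higher or lower in both measures. There were 164 higher (2.99%) and 513 lower (9.34%). Of the 279 genes higher in FPKM, 47 had a fragment ratio below 0, and of the 1431 lower in FPKM, 233 had one above 0. Of genes lower in FPKM, 8.64% were also lower in fragments where both interval arms were at most 10% of FPKM, and 56.8% where either was over 25%. For genes higher in FPKM these shares were 62.5% and 54.5%. Implied fragments are computed from the same interval arms that define these classes. The shares are therefore partly fixed by the classes and are no check of the calls.

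**Figure D2:**
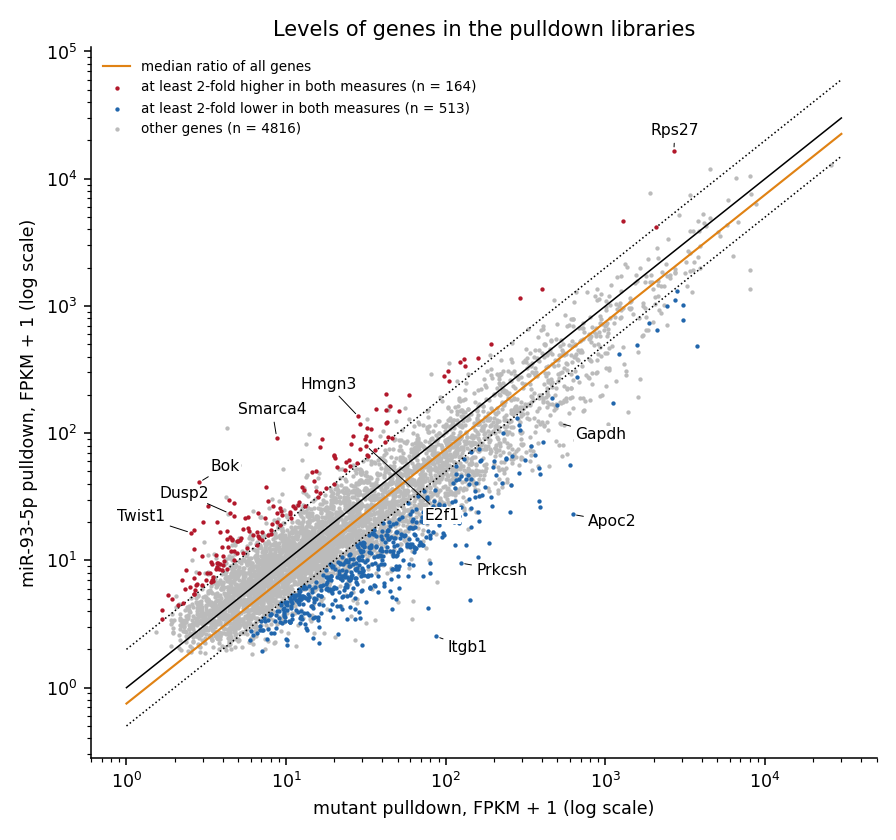
Each point is 1 of the 5493 genes, with FPKM + 1 in the miR-93-5p pulldown on the y axis and in the mutant pulldown on the x axis, both on log scales; the solid black line is equality, dotted lines are 2-fold and the orange line is the median ratio. The 164 red genes are higher and the 513 blue genes lower in both measures, and the median line lies under the line of equality.

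The message with the highest ratio in both measures was Bok, which encodes a pro-apoptotic relative of Bax and Bak. It had 40.1 FPKM (bounds 36.3 and 43.9) in the miR-93-5p library, against 1.86 FPKM (1.252 and 2.46) in the mutant library, a log2 ratio of 3.85. Its fragment ratio was 3.93. The intervals are far apart. RNA-seq gave Bok 0.62 FPKM in mutant cells and no value in miR-93-5p cells. Here and below, no value means that no RNA-seq locus was matched to the gene, not that its RNA was absent. This also happened for abundant genes, such as Pcna, with 360 FPKM in miR-93-5p cells and no value in mutant cells.

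Smarca4 encodes the Brg1 ATPase of the SWI/SNF chromatin remodelling complex. It had 91.4 FPKM (88.2 and 94.6) in the miR-93-5p library and 7.72 FPKM (7.10 and 8.35) in the mutant library, a log2 ratio of 3.40 with a fragment ratio of 3.12. In the RNA-seq libraries it had 49.3 FPKM in miR-93-5p cells and 43.1 in mutant cells, a much smaller difference than in the pulldown.

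Twist1, a transcription factor of mesenchymal cells, had 15.5 FPKM in the miR-93-5p library against 1.54 in the mutant library (log2 ratio 2.70, fragments 3.63). Dusp2, a phosphatase that switches off MAP kinases, had 22.4 against 3.43 FPKM (2.40, fragments 2.96). Alkbh1, a nucleic acid demethylase, had 19.2 against 2.71 FPKM (2.44, fragments 2.85). The bounds of these genes do not overlap between the libraries. Twist1, Dusp2 and Alkbh1 had no RNA-seq value in either kind of cell.

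Dtx3, a Deltex ubiquitin ligase, had 16.4 FPKM in the miR-93-5p library against 1.65 in the mutant library. Septin4, a septin GTPase, had 27.4 against 3.69 FPKM, and Rbpms2, an RNA-binding protein, 28.7 against 3.38 FPKM. B3galnt2, a glycosyltransferase, had 25.7 against 2.25 FPKM with a smaller fragment ratio of 1.09. The paired loci of Rbpms2 and B3galnt2 differed in extent. They spanned 58590 and 23595 bp in the miR-93-5p library, in that order, against 29978 and 44363 bp in the mutant library. Akr1b3, an aldose reductase, had 89.5 against 15.8 FPKM with a fragment ratio of 1.32. These 5 messages were again higher in both measures, and in RNA-seq Akr1b3 had 76.6 FPKM in miR-93-5p cells and 82.0 in mutant cells. Septin4 had no RNA-seq value in either kind of cell.

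Rps27, a protein of the small ribosomal subunit, had 16568 FPKM (15857 and 17280) in the miR-93-5p library against 2679 (2544 and 2815) in the mutant library, and 323 against 364 FPKM in RNA-seq. Ribosomal protein genes have many near-identical copies in the mouse genome, and how reads were shared among copies is not stated. Atp6v0a2, a subunit of the vacuolar proton pump, had 18.9 FPKM in the miR-93-5p library, with bounds of 7.97 and 29.9, against 2.005 in the mutant library. Its interval was wide, and the fragment ratio of the matched locus alone was -1.70, the other way, so it is the least firm of the 12 genes.

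At the other end stood Itgb1, the beta-1 integrin chain. It had 1.53 FPKM (0.893 and 2.16) in the miR-93-5p library, against 86.0 FPKM (81.7 and 90.3) in the mutant library, a log2 ratio of -5.11. RNA-seq gave 120.6 FPKM in miR-93-5p cells and 117.4 in mutant cells. The matched miR-93-5p locus of Itgb1 spanned 28250 bp, against 47341 bp in the mutant library. It held 23.2 of the 311.7 implied fragments that the gene's 2 loci had in the miR-93-5p library. Its FPKM thus stands for part of the gene alone. The fragment ratio of Itgb1, over all loci of the gene, was -1.66, less extreme than the FPKM ratio.

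Apoc2, an apolipoprotein, had 22.0 FPKM in the miR-93-5p library and 622 in the mutant library (log2 ratio -4.76, fragments -3.27). Ifi27l2b, a relative of an interferon-inducible gene, had 3.93 against 139.8 FPKM (-4.84, fragments -3.84). Rbp4, the plasma carrier of retinol, had 54.7 against 595 FPKM (-3.42, fragments -1.36), and Clu, the secreted chaperone clusterin, 12.7 against 185 FPKM (-3.77, fragments -1.996). The last of these pairs also differed in RNA-seq, where Rbp4 had 58.8 FPKM in miR-93-5p cells against 172.7 in mutant cells and Clu 52.4 against 99.5.

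Pdia4, a protein disulfide isomerase of the endoplasmic reticulum, had 3.23 FPKM in the miR-93-5p library against 76.7 in the mutant library, and Pdia6, another, had 25.2 against 386. Prkcsh, the beta subunit of glucosidase II, had 8.53 against 123 FPKM. Their fragment ratios were -2.31, -1.19 and -2.72, so all of them were lower in both measures. The matched Pdia4 locus of the miR-93-5p library spanned 9820 bp, against 17183 bp in the mutant library. It held 28.2 of the 154.4 implied fragments of the gene, so its FPKM stands for part of the gene alone.

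Lap3, a leucine aminopeptidase, had 9.57 FPKM in the miR-93-5p library against 158.6 in the mutant library, and Nup88, a nucleoporin, 1.16 against 28.8. The matched Nup88 locus of the miR-93-5p library spanned 15202 bp, against 26954 bp in the mutant library. It held 11.9 of the 168.9 implied fragments of the gene, so its FPKM stands for part of the gene alone. Fam50a, a nuclear protein, had 28.5 against 380 FPKM, and Spdl1, the kinetochore protein Spindly, 3.15 against 44.9. The loci of Lap3 and Spdl1 also differed in extent, at 19166 and 14219 bp in the miR-93-5p library against 31919 and 24313 bp in the mutant library. Fragment ratios of Lap3, Nup88, Fam50a and Spdl1 were -1.40, -1.69, -1.54 and -1.58, less extreme than their FPKM ratios. In RNA-seq Lap3 had 61.7 FPKM in miR-93-5p cells against 78.3 in mutant cells, and Spdl1 22.1 against 23.7, far less of a difference than in the pulldown.

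**Figure D3:**
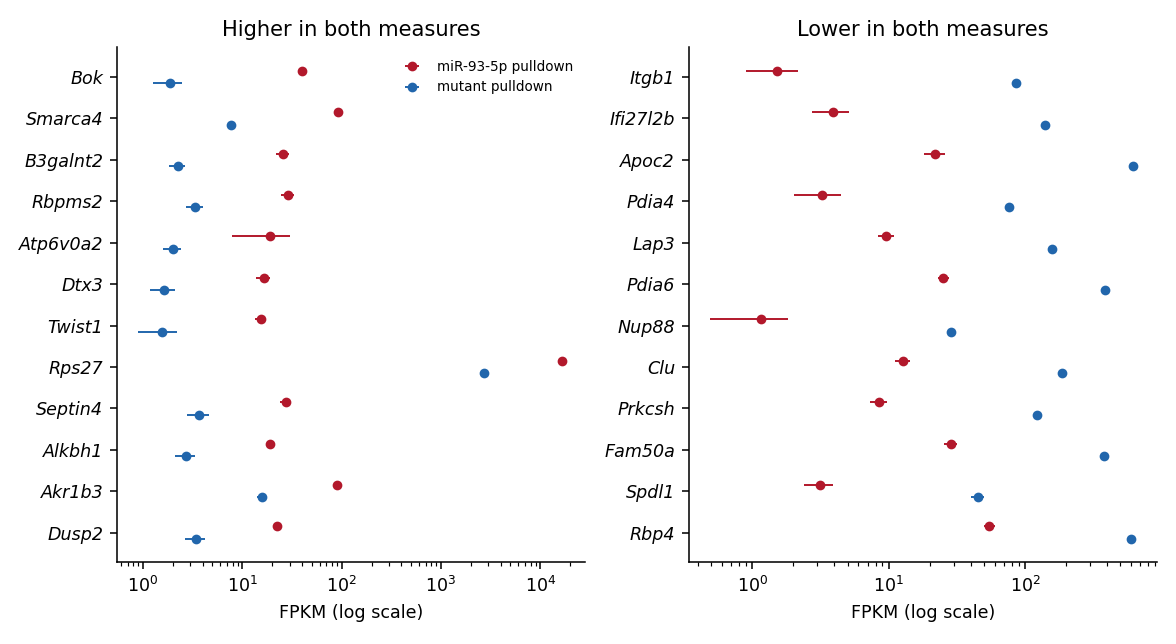
FPKM (log scale) of the 12 genes with the highest and the 12 with the lowest ratio among those apart in both measures, with the miR-93-5p pulldown in red and the mutant pulldown in blue; bars are the deposited bounds. The bars of the libraries do not overlap for any gene shown, and Atp6v0a2 has the widest bar among the higher genes.

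Some of the most extreme FPKM ratios were not borne by fragments. Son, a scaffold of nuclear speckles, had 108.2 FPKM in the miR-93-5p library against 3.25 in the mutant library, yet its fragment ratio was -0.29. Rnpc3, a protein of the minor spliceosome, had 54.8 against 4.10 FPKM with a fragment ratio of -1.002. Tsr3, a ribosome maturation factor, had 2.49 against 60.0 FPKM with a fragment ratio of -0.02. For Son and Rnpc3 FPKM and the interval disagree. For Tsr3 the matched locus alone had a fragment ratio of -2.58, the same way as FPKM. It held 51.6 of the 362.7 implied fragments that the gene's 2 loci had in the miR-93-5p library. Son, Rnpc3 and Tsr3 are not among the genes apart in both measures, but the counts by FPKM include them.

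Differences of 2-fold were rare for these genes in whole RNA. Of the 164 genes higher in both measures, 116 had RNA-seq values, with a median RNA-seq log2 ratio of -0.03, and 5 of them were higher and 2 lower by 2-fold or more there. Of the 513 lower genes, 457 had values, with a median of 0.03, 12 higher and 13 lower. Among all 4673 genes with RNA-seq values, 93 (1.99%) were higher and 88 (1.88%) lower by 2-fold or more. The lower genes were the more abundant ones in whole RNA, with median RNA-seq levels in miR-93-5p cells of 31.0 FPKM, against 15.8 FPKM for the higher genes and 26.1 FPKM for all.

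The members of the miR-17 pathway that are named most often as targets were split. E2f1, a transcription factor that drives entry into S phase, had 78.4 FPKM (74.0 and 82.7) in the miR-93-5p library against 30.7 (28.7 and 32.8) in the mutant library, a log2 ratio of 1.32 with fragments at 1.20. Trp53inp1, a p53-induced regulator of apoptosis and autophagy, had 10.3 against 3.90 FPKM (1.21, fragments 1.59). Both passed 2-fold in FPKM and in fragments.

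Cdkn1a, the cyclin-dependent kinase inhibitor p21, had 56.5 FPKM (45.7 and 67.3) in the miR-93-5p library against 32.9 (30.8 and 35.1) in the mutant library, a log2 ratio of 0.76 and 1.18 after scaling. Its fragment ratio ran the other way, at -2.13, beside a miR-93-5p interval much wider than that of the mutant.

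Of 50 genes listed from the literature as targets of the family, 21 could be compared in FPKM. Their median log2 ratio was 0.13, against -0.42 over all genes, with 2 genes higher (E2f1 and Trp53inp1) and 2 lower (Pdcd4 and Txnip). After scaling 6 were higher and 1 lower. Pdcd4, an inhibitor of translation, had 13.0 FPKM in the miR-93-5p library against 67.6 in the mutant library, and Txnip, which binds thioredoxin, 10.97 against 27.8.

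In implied fragments 46 of the 50 could be compared. Of these 13 were at least 2-fold higher and 5 lower, 28.3% and 10.9%, where 21.4% and 20.5% of 10506 genes were. Bcl2l11, the pro-apoptotic Bim, had 437.6 implied fragments in the miR-93-5p library against 169.4 in the mutant library (fragment ratio 1.99), and 4.57 against 2.22 FPKM. Smad7, an inhibitor of TGF-beta signalling, had 6.38 against 3.28 FPKM with a fragment ratio of 1.098. Stat3, a cytokine-activated transcription factor, was lower in fragments, with 26.9 against 167.0.

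The Mcm7 gene, which encodes a subunit of the replicative helicase and hosts the miR-93 hairpin, could not be compared in FPKM because the libraries held different stretches of it. The miR-93-5p library had a single locus of 1071 bp at chr5:138170616-138171686, at the 5′ end of this minus-strand gene, covering 14.2% of it at 289 FPKM (274 and 305). The mutant library had a locus of 7275 bp at chr5:138164582-138171856, covering 96.6% of the gene and the hairpins of miR-93, miR-25 and miR-106b, at 78.1 FPKM (71.2 and 85.0). The miR-93-5p library had no locus over the miR-93 hairpin itself.

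Gene lists are described by their median beside that of all genes, and scaled values are given because the shift of 0.42 moves every list. The p53 response genes had a scaled median of 0.64, with 4 of 20 genes higher and 0 lower before scaling, and 6 and 0 after it. Over all genes 5.08% were higher and 26.1% lower before scaling, and 11.7% and 14.2% after it, and the counts of the lists that follow are to be read against these shares. Mdm4, which restrains p53, had 80.6 FPKM in the miR-93-5p library against 12.2 in the mutant library, with a fragment ratio of 0.97. Gadd45b, a stress-induced growth regulator, had 36.4 against 16.8 FPKM, with fragments at 1.16. The E2F factors and pocket proteins, 6 genes compared, had a scaled median of 0.83 with E2f1 as the only one past 2-fold.

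The immediate early genes, which are transcribed within minutes of a stimulus and have short-lived messages, had a scaled median of 0.72, with 4 of 15 higher and 1 lower, and 6 and 0 after scaling. Zfp36l2, which binds AU-rich elements, had 93.9 FPKM in the miR-93-5p library against 25.4 in the mutant library (log2 ratio 1.84, fragments 2.17). Klf4, a Kruppel-like transcription factor, had 19.9 against 7.33 FPKM (1.33, fragments 0.66). Among MAP kinase phosphatases Dusp2 alone passed 2-fold of 8 genes, and the scaled median was 0.58. Dusp1 had 37.4 against 19.7 FPKM, a log2 ratio of 0.89.

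Wnt signalling genes had a scaled median of 0.85, with 4 of 10 higher and 1 lower, scaled or not. The higher ones were Wnt7b, a ligand (7.02 against 2.21 FPKM), Dvl1, a Dishevelled adaptor (7.43 against 2.95), Gsk3b, the kinase that marks beta-catenin for destruction (4.48 against 1.65), and Porcn, which acylates Wnt ligands (4.08 against 1.52), in each case the miR-93-5p library against the mutant library. Their fragment ratios were 1.14, 1.62, 2.27 and 0.09. Ctnnb1, beta-catenin itself, went the other way with 35.0 against 211 FPKM, although its RNA-seq values were 484.9 in miR-93-5p cells and 454.7 in mutant cells.

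Among high mobility group proteins, which bend or bind chromatin, Hmgn3 had 134.2 FPKM in the miR-93-5p library against 27.3 in the mutant library, Hmga2 34.4 against 14.3 and Hmgn1 4154 against 2067. Those 3 of 10 genes were higher and 2 were lower, among them Hmgn5 (20.3 against 74.6). The list's scaled median was 0.34. Hmgn genes have many processed copies in the genome, so their levels carry the same doubt as Rps27.

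Of 33 PI3K-Akt-mTOR genes 16 could be compared in FPKM. Of these Gsk3b was higher and Eif4e lower, and the scaled median was 0.34. In implied fragments 14 of 28 were at least 2-fold higher and 0 lower, with a median of 0.98, against 21.4% higher and 20.5% lower over all genes. Eif4ebp2, which blocks the cap-binding protein, had 1136 implied fragments in the miR-93-5p library against 380.6 in the mutant library. Of the former, 893.5 came from a single locus of 1046 bp at the 5′ end of the gene. The mutant library had a locus over the whole gene, so these sums are not of like stretches. Akt1 had 563.5 against 190.5, and Rps6kb1, the S6 kinase, 348.2 against 164.9. The FPKM of Akt1 differed little, at 20.1 against 25.2, as did that of Rps6kb1 at 38.6 against 39.5.

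Genes of the microRNA machinery itself had 13 of 26 higher in fragments, 2 lower and a median of 0.99, where 21.4% of all genes were higher and 20.5% lower. Leaving out genes with any locus under 10 implied fragments, a setting chosen after seeing the data, left 9 of 20 higher and 2 lower, and 11 of 24 and 0 for the PI3K-Akt-mTOR genes, where 1727 of 9058 genes (19.1%) were higher and 1814 lower. In FPKM 10 were compared, with 2 higher and 3 lower and a scaled median of 0.42. The lower ones included Ddx17, at 1.68 FPKM in the miR-93-5p library against 16.4 in the mutant library, and Hsp90ab1, at 265 against 1646. Their fragment ratios were -0.83 and 0.95. The matched Ddx17 locus held 25.8 of the 367.3 implied fragments of the gene in the miR-93-5p library. Drosha, the nuclease that cuts primary microRNA transcripts, had 11.9 FPKM in the miR-93-5p library against 3.32 in the mutant library (fragments 1.08). Tnrc6b, a GW182 partner of Argonaute, had 4.30 against 0.82 FPKM (fragments 1.27). Cnot6, a deadenylase, had 8.89 against 7.23 FPKM but 534.8 against 145.2 implied fragments.

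The lists at the low end held abundant housekeeping messages. Glycolysis and hypoxia genes had a scaled median of -1.34, with 13 of 16 lower and 0 higher, and 12 and 0 after scaling, where 26.1% of all genes were lower before scaling and 14.2% after it. Gapdh had 118.7 FPKM in the miR-93-5p library against 516.7 in the mutant library, Pfkl, a phosphofructokinase, 7.57 against 47.4, and P4ha2, a collagen prolyl hydroxylase, 5.05 against 49.8. RNA-seq did not follow, with Gapdh at 2355 FPKM in miR-93-5p cells and 2520 in mutant cells, Pfkl at 48.3 and 33.3, and P4ha2 at 11.1 and 7.02. In fragments the median of the same 16 genes was -0.43 and Gapdh lay at -0.02. Over the 26 members with fragments the median was -0.73, with 12 lower (46.2%) and 2 higher (7.69%), against 20.5% and 21.4% of all genes.

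Cytoskeletal genes had a scaled median of -0.79, with 15 of 28 lower and 1 higher, where 26.1% of all genes were lower and 5.08% higher. Ezr, which links actin to the membrane, had 54.5 FPKM in the miR-93-5p library against 443 in the mutant library, and Actb 28.8 against 83.7. Proteasome subunits had a scaled median of -0.62, with 18 of 32 lower and 0 higher, and 10 and 0 after scaling. Psmc6, an ATPase of the proteasome cap, had 179 against 745 FPKM. In fragments the medians of these lists were -0.11 and -0.07, near 0.

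The list of protein folding and amino acid stress genes had a scaled median of -0.48, with 11 of 24 lower and 0 higher, and 8 lower and 3 higher after scaling. Among the lower ones were chaperones and folding enzymes of the endoplasmic reticulum: Calr had 87.7 FPKM in the miR-93-5p library against 772 in the mutant library, Pdia3 87.9 against 640, and Hspa5 142 against 588. Xbp1, the transcription factor that induces them, had 2.56 against 18.6. Stress regulators ran both ways, since Xbp1 was lower, and Ddit3 (157 against 102 FPKM), Sesn2 (6.32 against 3.75) and Ppp1r15a (11.2 against 6.37) were the 3 past 2-fold higher after scaling. Whole RNA of the folding enzymes ran at like levels, with Calr at 339 FPKM in miR-93-5p cells and 298 in mutant cells. The fragment ratio of Calr was 0.58, opposite to its FPKM ratio.

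Interferon response genes had a scaled median of -0.49, with 7 of 14 lower and 0 higher, and 3 and 0 after scaling, where 26.1% of all genes were lower before scaling and 14.2% after it. Irf1, a transcription factor of the response, had 47.4 FPKM in the miR-93-5p library against 147.9 in the mutant library, while its RNA-seq level was 55.3 in miR-93-5p cells against 31.9 in mutant cells. In fragments 11 of 26 (42.3%) were at least 2-fold lower and 1 higher (3.85%), against 20.5% and 21.4% of all genes. Ifit3 and Usp18, interferon-induced genes, had 0 implied fragments in the miR-93-5p library, against 619 and 143.8 in the mutant library. A value of 0 can also come from a longer locus across the gene, which was not tested. NF-kB and inflammation genes had a scaled median of -0.25, with 5 of 15 lower and 1 higher. Ccl20, a chemokine, had 79.1 against 513 FPKM.

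Cell cycle and replication genes had a scaled median of -0.51, with 13 of 32 lower and 1 higher, the higher one being E2f1. Cdk1, the mitotic kinase, had 79.1 FPKM in the miR-93-5p library against 300.6 in the mutant library, and Pcna, the replication clamp, 115.0 against 408. After scaling 5 were lower and 1 higher, a share of lower genes near the 14.2% of all genes, against 26.1% before scaling. Polycomb genes lay at the median of all genes, at 0.00 scaled, with 3 of 18 lower and 1 higher. Ezh2, the catalytic subunit of PRC2, had 24.4 against 63.6 FPKM with a fragment ratio of -1.61.

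Histone methylases and demethylases had 9 genes compared, with a scaled median of -0.22, 3 lower and 0 higher. Over the 42 members with fragments the median was 0.27, with 13 higher (31.0%) and 9 lower (21.4%), against 21.4% and 20.5% of all genes. Ash2l, a subunit of H3K4 methylases, had 8.36 FPKM in the miR-93-5p library against 25.1 in the mutant library (fragments -1.57). Trim28 had 8.90 against 25.6 FPKM, but its mutant bounds of 3.89 and 47.4 make that value uncertain, and its fragment ratio ran the other way at 4.69. Ribosomal protein genes had a scaled median of -0.07 with 3 of 71 higher and 15 lower, and respiratory chain subunits -0.06 with 2 of 61 higher and 13 lower. Spliceosome genes had -0.14 with 4 of 41 higher and 15 lower. Over all genes 5.08% were higher and 26.1% lower, and the ribosomal and respiratory chain shares are near these.

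Among the remaining lists, scaled medians were 0.64 for classical tumour suppressors, with 1 of 17 higher and 2 lower and a fragment median of -0.53 in the same genes, and 0.54 for DNA methylation genes, with 1 of 6 higher. They were 0.27 for TGF-beta and BMP genes, with 0 of 10 higher and 2 lower, 0.14 for extracellular matrix genes, with 1 of 9 higher and 3 lower, and 0.07 for apoptosis regulators, with 1 of 17 higher and 4 lower. They were 0.02 for Hippo genes, with 2 of 15 higher and 0 lower, and -0.13 for cholesterol and fatty acid synthesis, with 1 of 13 higher and 4 lower. Over all members with fragments, the 32 tumour suppressors had a median of 0.42, with 11 higher (34.4%) and 4 lower (12.5%), and the 25 extracellular matrix genes one of -0.54, with 1 higher and 9 lower. Of all genes 21.4% were higher and 20.5% lower in fragments. The sign of the median of both these lists thus differed with the genes or the measure used. It also differed with the measure, in the same genes, for TGF-beta and BMP genes, with a fragment median of -0.20. The same held for ribosomal protein (0.52), respiratory chain (0.28) and spliceosome genes (0.09), whose scaled FPKM medians were below 0.

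**Figure D4:**
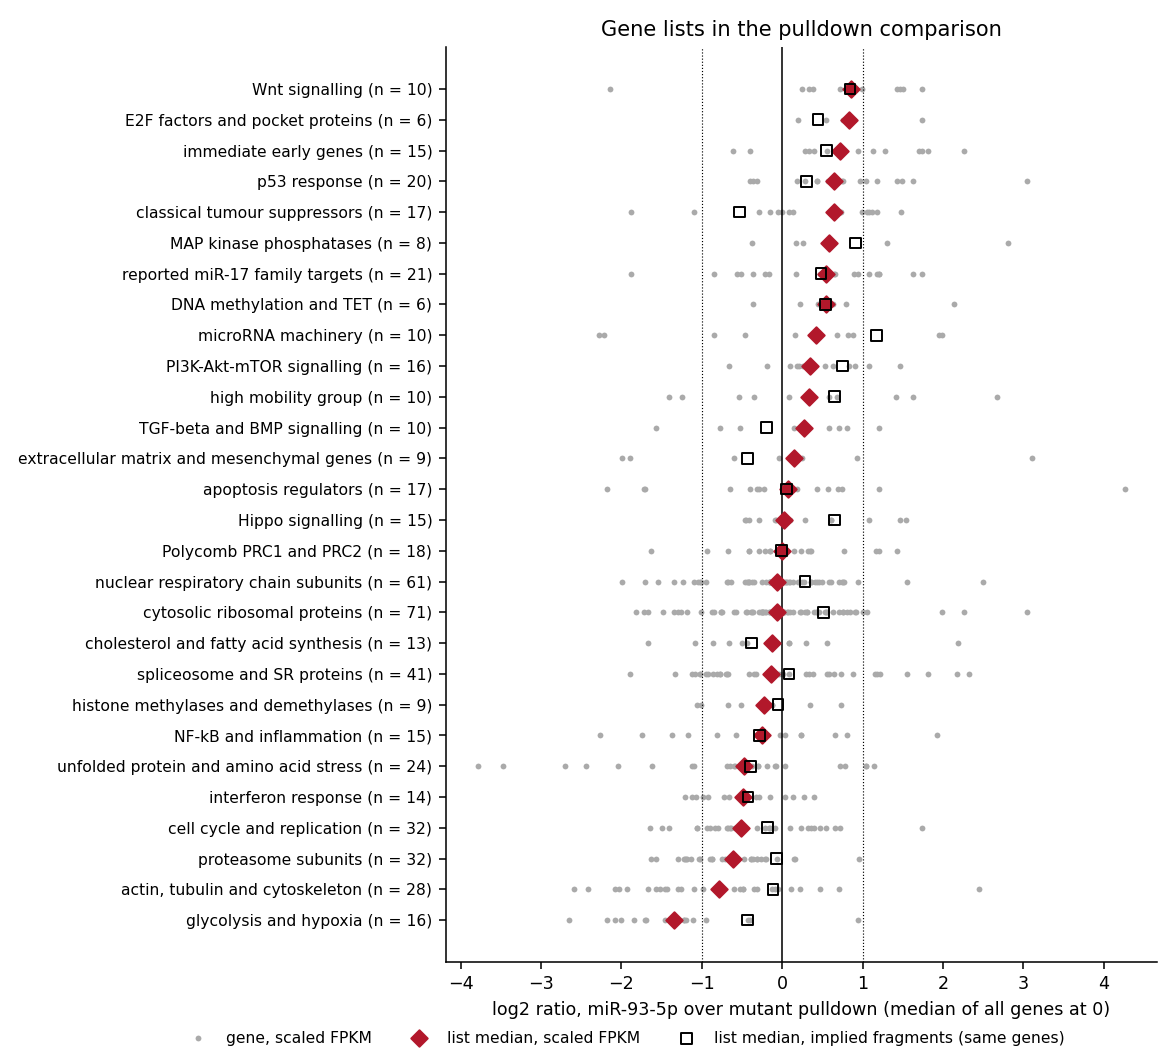
The log2 ratio of miR-93-5p over mutant pulldown for the genes of each list (grey points, scaled FPKM), with the list median in scaled FPKM (red diamonds) and in implied fragments of the same genes (open squares); dotted lines are 2-fold and n is the number of genes compared. Wnt genes have the highest scaled median (0.85) and glycolysis and hypoxia genes the lowest (-1.34), and for several lists at the low end the fragment median lies nearer to 0.

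Markers of cell types were looked at because LEPC is a liver line. Of 12 hepatocyte markers 8 could be compared in implied fragments. At least 2-fold lower in the miR-93-5p library were 7 of these, where 20.5% of all genes were lower. The exception was Afp, with 81.3 implied fragments in the miR-93-5p library against 143.4 in the mutant library (fragment ratio -0.12). Hnf4a, the master regulator of hepatocytes, had 18.0 implied fragments in the miR-93-5p library against 481.7 in the mutant library, Ttr, the plasma carrier transthyretin, 0 against 222, and Apob, the core protein of secreted lipoproteins, 66.9 against 433. Here whole RNA moved too: RNA-seq gave Hnf4a 7.22 FPKM in miR-93-5p cells against 27.4 in mutant cells, and Apob 2.54 against 10.0. Summed over the list the implied fragments, unscaled, were 238 in the miR-93-5p library and 1975 in the mutant library. All loci of these libraries held 3814082 and 5855469. The biliary and progenitor markers described next summed to 7533 and 94195. The 0 of Ttr can also come from a longer locus across the gene, which was not tested. The part that lower whole RNA played in the low values of Rbp4 and Clu, which hepatocytes secrete, was not tested. Apoc2, which hepatocytes also secrete, had no RNA-seq value in either kind of cell.

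Biliary and progenitor markers were detected in both libraries, 8 of 11 in the miR-93-5p library and 10 in the mutant library. In fragments 4 of 10 were lower and 0 higher, with a median of 0.08, where 20.5% of all genes were lower and 21.4% higher. In FPKM 4 of 7 were lower and 0 higher, where 26.1% of all genes were lower and 5.08% higher. Spp1, osteopontin, had 487 FPKM in the miR-93-5p library against 3752 in the mutant library, though RNA-seq gave 1076 FPKM in miR-93-5p cells and 1077 in mutant cells. Krt19, a keratin of bile duct cells, had 52.6 against 380 FPKM. Not all of these markers were low, since the 7 compared in FPKM reached a log2 ratio of 0.55. Their scaled FPKM median was -1.25, but their fragment median was 0.44. Epcam and Cdh1, epithelial adhesion proteins, had 0 implied fragments in the miR-93-5p library, against 39.5 and 137.0 in the mutant library. Of 7 leukocyte and 5 endothelial markers none had 20 or more implied fragments in either library, and of 8 fibroblast markers Pdgfrb alone did, with 33.4 against 0. The values of 0 for Epcam, Cdh1 and Pdgfrb can also come from a longer locus across the gene, which was not tested.

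Short loci inside long genes differed in where they lay. In genes over 10000 bp the miR-93-5p library had 4500 loci under 2000 bp, in 3174 genes, and the mutant library 1803, in 1439 genes. Within 500 bp of the 3′ end lay 38.4% of miR-93-5p and 40.7% of mutant short loci. Within 500 bp of the 5′ end lay 324 of the miR-93-5p loci, 7.20%, and 57 of the mutant loci, 3.16%. They belonged to 317 and 57 genes, of which 29 were shared, or 9.15% of the miR-93-5p genes and 50.9% of the mutant genes. Of the 288 genes with such a locus in the miR-93-5p library alone, 224 had a locus over the whole gene in the mutant library.

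Eif4ebp2 shows the pattern. Its 5′ locus in the miR-93-5p library lay at chr10:61451775-61452820, 1046 bp long, with 114 FPKM (106 and 121), while the mutant library had a locus over the whole gene at 21.3 FPKM. Mthfsd had a 5′ locus of 1379 bp with 138 FPKM against 18.0 FPKM over the whole gene in the mutant library, and Pcf11, a factor of transcript cleavage and polyadenylation, one of 1708 bp with 18.9 FPKM against 3.54. FPKM of a short locus and of a whole gene are not the same quantity, so no ratio is given.

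**Figure D5:**
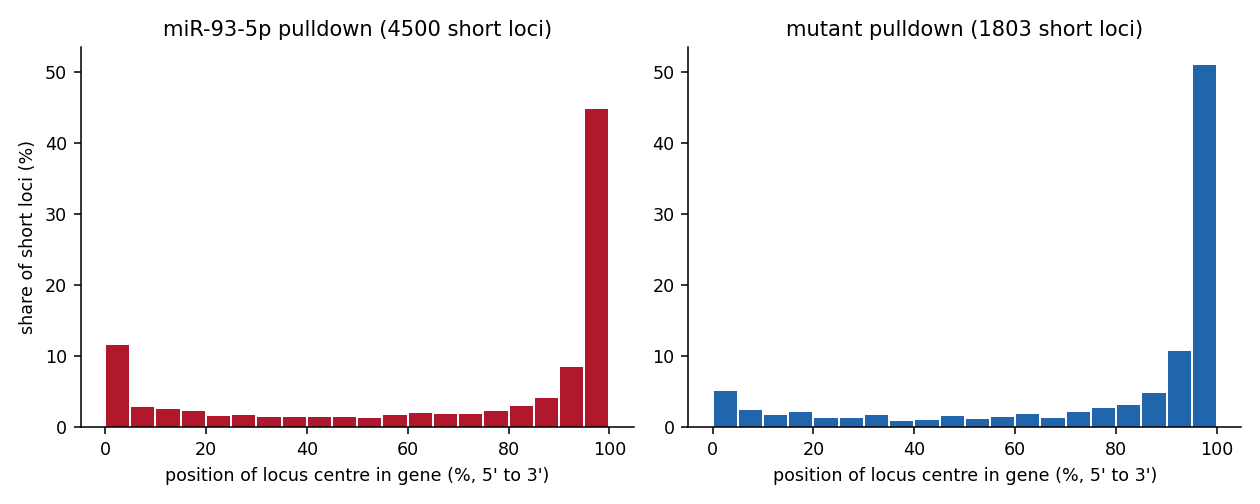
Share (%) of short loci (under 2000 bp, in genes over 10000 bp) by the position of their centre along the gene from the 5′ end (0) to the 3′ end (100), for the miR-93-5p pulldown (left) and the mutant pulldown (right). The first bin holds 11.5% of miR-93-5p and 5.16% of mutant short loci, and the last bin 44.8% and 51.0%.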

How the data were processed

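The authors deposited FPKM values per Cufflinks locus, each between 2 bounds, per the file headers. TopHat2, Cufflinks, Cuffdiff, CASAVA 1.4, Bowtie and MACS on mm9 are named, without settings, per the submitters' processing notes. The pulldown loci nevertheless lie on GRCm38 gene coordinates. The library kit named in the labels' protocols does not mark strand, so overlapping genes cannot be told apart. Depth is not given, and 36501 rows at 0 in each file were not used as loci.

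Loci were matched to RefSeq GRCm38.p6 genes by reciprocal best overlap of at least 0.5 of their joint extent. Ratios are of FPKM + 1. Implied fragments are the square of 2 times FPKM over the interval arm. Their ratio is taken over a gene's loci with 10 added, for genes with at least 20 in the higher library. RNA-seq loci were named through mm9 gene rows by the same overlap rule, and a gene without a matched locus has no RNA-seq value. No test was run, and the calculations were checked on simulated data. Each simulated gene had a single near-whole locus, so split, merged and very short loci were not covered. The compression of implied fragments at high FPKM was not simulated either. At least 2-fold apart counts as higher or lower.

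Named genes are the 12 highest and 12 lowest ratios among genes apart in both measures, the 5 at each end of FPKM, up to 3 per list by absolute ratio, and 6 genes given by name (E2f1, Cdkn1a, Trp53inp1, Mcm7, Actb, Gapdh). Some genes that this rule takes are not reported here. Other list members and markers were named after their values were seen. The comparison, its 28 gene lists and its 5 marker lists were chosen with earlier results of these data known. Other settings tried were 10, of pseudocount, filter, overlap, span, interval, scaling and implied fragments, and 1 chosen after seeing the data. The scr tables, peak lists and input samples were not used here. Python 3.11.15, pandas 2.3.3, numpy 2.4.6 and matplotlib 3.10.9 were used.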

Additional observations from a re-analysis of the deposited data

Results flagged for a closer look

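Loci outside every RefSeq gene, which no comparison above uses, held 5.07% of the implied fragments of the miR-93-5p pulldown and 1.04% of those of the mutant pulldown. They numbered 1514 and 616, with a median level of 4.57 FPKM in the miR-93-5p library and 2.37 FPKM in the mutant library. Implied fragments are compressed for abundant genes, and the part of this in the shares was not tested.

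Short loci within 500 bp of the 5′ end of long genes made up 7.2% of short loci in long genes in the miR-93-5p pulldown and 3.16% in the mutant pulldown. Their median level was 3.25 FPKM in the miR-93-5p library and 2.71 FPKM in the mutant library. The miR-93-5p library was also the more broken up, and the part that this plays was not tested.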

How the results depend on the processing

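The count of genes at least 2-fold higher, 279 as reported, was 144 with a pseudocount of 5, 154 with an overlap of at least 0.9, which left 3378 genes, 643 with scaled FPKM, 666 with implied fragments of the locus and 673 with implied fragments summed over loci. The count of genes at least 2-fold lower, 1431 as reported, was 943 with an overlap of at least 0.9, 782 with scaled FPKM, 924 with implied fragments of the locus and 789 with summed ones. The median log2 ratio was 0 under scaling and both fragment measures, which are scaled by construction. Under the other alternatives these counts stayed within 1.5 times.

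List medians turned positive with implied fragments of the locus for proteasome subunits (0.051) and cytoskeletal genes (0.0097). Of the 28 list medians, 16 were counted as moved with an overlap of at least 0.9 and 9 with a pseudocount of 5. With a mean FPKM of at least 5 these were 7, with summed fragments 25 and with scaled FPKM 28. Of 93 named genes at least 2-fold apart, 13 reversed. With fragments of the locus and summed, in that order, the log2 ratios were -0.17 and -0.29 for Son, -0.89 and -1.002 for Rnpc3, -1.67 and -1.16 for Fosl1, 0.89 and 0.76 for Cxcl5, 0.70 and 0.58 for Calr, 4.81 and 4.69 for Trim28, -0.20 and -0.27 for Mbd1, 1.08 and 0.95 for Hsp90ab1, -0.29 and -0.41 for Lsm8, 0.34 and 0.21 for Rpl15, and -0.53 and -0.65 for Sqle. With fragments of the locus alone they were -1.70 for Atp6v0a2 and 0.11 for Gapdh. The cause was not tested, beside the compression of implied fragments at high FPKM given above. No paired analysis was possible because each bait has 1 library.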
